A study of Mus musculus with 16 samples.

Results

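The proteasome genes of mouse gastrocnemius, a muscle of the calf, were taken from the deposited table by symbol. All genes whose symbol begins with Psma to Psmg and a digit were used, which gave 50 of 21923 genes. They are 8 alpha ring genes and 7 beta ring genes of the 20S core, 4 inducible or thymic beta genes, 6 ATPases and 11 other subunits of the 19S cap, 3 assembly chaperones of the cap, 6 genes for activators and an inhibitor, 4 assembly factors of the core, and Psmc3ip. The last one is taken by its symbol, encodes a factor of meiotic recombination, and is not a proteasome subunit. In every comparison 48 of the 50 passed the filter on low counts. The other two were the testis subunit Psma8, which stood at no more than 0.243 CPM in any mouse, and the thymus subunit Psmb11, at no more than 0.155 CPM. CPM is the read count of a gene scaled to the TMM-normalised library size. The subunits of the core and the cap without Psma8, 31 genes in all, are called structural subunits here.

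The proteasome is the protease that degrades proteins marked with ubiquitin. Its 20S core is a barrel in which rings of alpha subunits form the gate and rings of beta subunits enclose the active sites, and its 19S cap binds the ubiquitin chain, unfolds the protein with a ring of ATPases, and feeds it into the barrel. In wasting skeletal muscle this route is known for breaking down the contractile proteins, with the muscle ubiquitin ligases Trim63 and Fbxo32 acting before it. Interferon induces a variant of the core, the immunoproteasome, in which Psmb8, Psmb9, and Psmb10 take the places of the catalytic subunits Psmb5, Psmb6, and Psmb7.

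Poly(A) RNA of 16 adult mice was sequenced as 1 library per mouse, with 4 mice per group (NOR, CAC, AM, KD). NOR mice bore no tumor. CAC mice carried tumors, AM mice carried the same tumors and were dosed with amiloride, a diuretic that blocks sodium channels, at 2 mg/kg daily from day 9, and KD mice carried tumors of cells in which shRNAs targeted Rab27a and Rab27b, genes that act in exosome release. The NOR, CAC, and KD mice were given PBS daily over the same time as amiloride. The gastrocnemius was removed from all mice on day 30. In each group, replicates 1 and 2 carry the strain label C57BL/6, the host of LLC lung carcinoma cells, and replicates 3 and 4 the strain label BABL/c (BALB/c in the protocol), the host of CT26 colon carcinoma cells, so the strain and the tumor line change together. C57BL/6 mice were male, and BALB/c mice were male or female per the labels, without the sex of single mice. The knock-down was made in the injected cells, so that muscle RNA holds no check of it. The comparisons were made to learn whether muscle genes changed by the tumor lay closer to NOR under amiloride or with Rab27 knock-down tumors.

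Each library held between 35913190 and 61032708 counts, and the 50 genes took 0.382% to 0.409% of these in NOR, 0.574% to 0.801% in CAC, 0.390% to 0.439% in AM, and 0.359% to 0.491% in KD. The 8 markers of skeletal muscle (among them Acta1, Ckm, and Myh4) were present in every library, and 0 of 8 were called between groups. Their sum was 124400 to 177500 CPM in NOR, 54350 to 126400 CPM in CAC, 110100 to 145700 CPM in AM, and 99360 to 159400 CPM in KD. All 8 had a negative log2 fold change in CAC vs. NOR (median -0.53, 3 with an unadjusted p under 0.05), and 7 of 8 and 8 of 8 had a positive one in AM and in KD relative to CAC. The part of this in the results below was not tested. Markers of other cells varied between mice. The summed level of 15 B and T cell markers lay between 1.53 and 4.74 CPM in NOR replicate 1, CAC replicates 1 and 4, and KD replicates 2 and 3, and between 54.6 and 648 CPM in the other 11 libraries. In 5 libraries Cd3e, a defining T cell marker, was at 0. In CAC vs. NOR, 5 of 5 erythroid and 3 of 7 neutrophil markers were called up, and none of the 8 macrophage, 7 B cell, 8 T cell, 4 lymph node stroma, or 4 adipocyte markers was called. The sum of the erythroid markers was 1002 to 1374 CPM in NOR, 3646 to 8714 CPM in CAC, 967 to 16080 CPM in AM, and 2207 to 21200 CPM in KD. That of the neutrophil markers was 3.74 to 32.7 CPM in NOR, 97.6 to 225 CPM in CAC, 14.7 to 223 CPM in AM, and 12.1 to 333.5 CPM in KD. High values of both lists were thus found in mice of all 3 groups with tumors. In AM vs. NOR and KD vs. NOR the median log2 fold changes were 2.45 and 2.80 for the erythroid and 2.76 and 3.58 for the neutrophil markers, with 0 of them called and with an unadjusted p under 0.05 in 5 of 5 and 5 of 5 of the first and in 5 of 7 and 6 of 7 of the second. Their part in the results below was not tested.

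Promoters of 4 subunits are shown because these genes stand at the 2 ends of the results below. Psmd4 and Psma7 had the largest changes with the tumor, and the catalytic subunits Psmb5 and Psmb6 had among the smallest of the structural subunits. The values of Psmb5 are uncertain, as given below. Each sequence is the 150 bases before the RefSeq start, read 5′ to 3′ on the strand of the gene, from RefSeq on GRCm38.p6. Capitals mark CCAAT, the box bound by NF-Y, TGACNNNGC, the core of the antioxidant response element, and the interferon response element, searched on both strands.
Psmd4, chr3:95042615-95042764, minus strand: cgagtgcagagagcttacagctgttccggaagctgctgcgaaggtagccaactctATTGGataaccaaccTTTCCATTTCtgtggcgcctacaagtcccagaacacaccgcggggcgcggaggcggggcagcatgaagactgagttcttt
Psma7, chr2:180042465-180042614, minus strand: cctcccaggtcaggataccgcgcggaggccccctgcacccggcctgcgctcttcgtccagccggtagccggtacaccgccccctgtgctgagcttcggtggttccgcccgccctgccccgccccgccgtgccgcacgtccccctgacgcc
Psmb5, chr14:54617996-54618145, minus strand: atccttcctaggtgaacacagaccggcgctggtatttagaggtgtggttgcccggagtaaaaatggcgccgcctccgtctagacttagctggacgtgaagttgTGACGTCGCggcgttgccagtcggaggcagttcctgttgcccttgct
Psmb6, chr11:70525207-70525356, plus strand: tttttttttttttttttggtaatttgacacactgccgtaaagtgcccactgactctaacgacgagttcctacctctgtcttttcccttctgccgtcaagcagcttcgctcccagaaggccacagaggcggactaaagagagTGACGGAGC

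Psmd4 held a CCAAT box and an interferon element, 95 and 80 bases before the start and both on the opposite strand. Psmb5 and Psmb6 each held 1 antioxidant core, which began 47 and 9 bases before the start, and Psma7 held none of the motifs in the bases shown. RefSeq gave 45 promoters for 42 of the 50 genes, and 38 of the 45 were followed by bases of an annotated transcript of the same gene. In the 250 bases before each start, TGACNNNGC lay in 5 of 45 (11.1%), against 10.2% of 32807 mouse promoters of the same length. The others with it were Psmc6, Psmd9, and Psmd12. CCAAT lay in 15 of 45 (33.3%, against 33.8% of all), the interferon response element in 3 of 45 (6.67% against 2.97%, namely Psmb3, Psmd4, and Psmd9), and GTAAACA, a binding site of FoxO factors, in 0 of 45 (3.16% of all). Of the 4 promoters of the inducible and thymic beta genes, 0 held the interferon response element. These matches describe letters in a window and not binding sites.

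With a tumor (CAC against NOR), 14 of the 48 proteasome genes tested rose and 0 fell, where 4.32% of 14666 genes rose and 5.13% fell. A gene was called with edgeR's quasi-likelihood F test at a Benjamini-Hochberg FDR of at most 0.05 over all genes and a fold change of at least 1.5. All 14 were structural subunits, 10 of them in the 19S cap, and none of the inducible subunits, activators, chaperones, or assembly factors was among them. At an FDR of at most 0.05 without the fold limit, 28 of 48 rose (7.79% of all genes). With both limits the count was 22 with total counts only, where 1578 of 14666 genes were called in all. It was 4 in the C57BL/6 mice alone and 0 in the BABL/c mice alone, with 2 mice against 2. Over all genes those fits called 247 of 14604 and 0 of 15059. The median log2 fold change was 0.44 over the 48 genes and 0.57 over the 31 structural subunits, and 0.012 over all genes. All 31 structural subunits had a positive value (51.2% of all genes), and in 28 of them every CAC mouse lay above every NOR mouse, as in 12.5% of all genes. In bulk tissue, fewer cells of a type and less RNA per cell cannot be told apart. The replicates are separate mice.

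**Figure D1:**
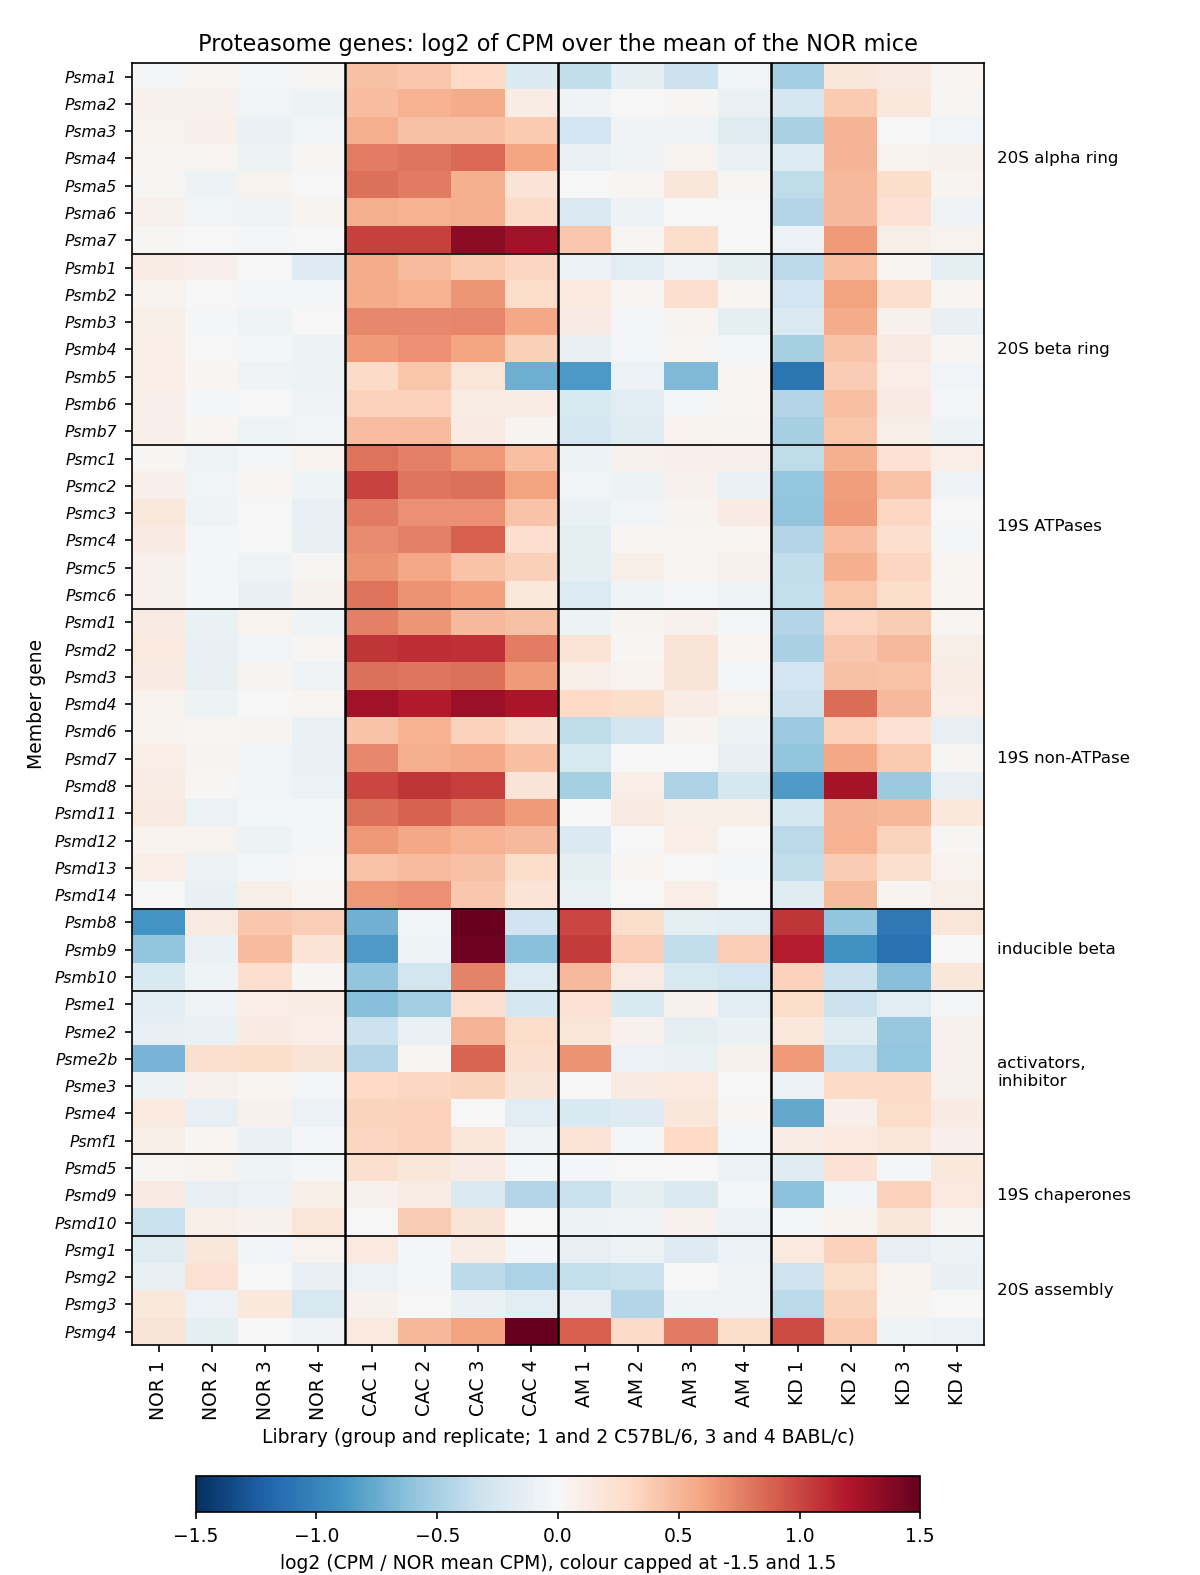
Heat map of 47 of the 48 tested genes, without Psmc3ip (rows, by role) in the 16 libraries (columns). Colour gives the log2 of a mouse's CPM over the mean of the 4 NOR mice, with red above and blue below (colour capped at -1.5 and 1.5). Rows of the core and the cap are red in the 4 CAC mice, except Psma1 and Psmb5 in CAC replicate 4, and in KD replicate 2. Most are pale in the AM mice, with Psma1, Psmb5, and Psmd8 stronger in AM replicates 1 and 3 and Psma7 and Psmd6 in AM replicate 1, and blue in KD replicate 1, palest there for Psma7, while the inducible subunits differ from mouse to mouse within each group.

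The 19S subunits outside the ATPase ring held the gene with the largest change, and their median log2 fold change was 0.59, against 0.66 in the ATPases. Psmd4 (ENSMUSG00000005625, chromosome 3, 95032694 to 95042614), a receptor of ubiquitin chains, stood at 159, 145, 154, and 156 CPM in NOR replicates 1 to 4 and at 367, 350, 378, and 359 CPM in the CAC mice. The CAC values were all more than 2 times those of any NOR mouse, and the spread between mice was small in both groups. The log2 fold change was 1.24 (SE 0.0915, FDR 0.000878 with edgeR), the largest of the 48. Psmd2 (ENSMUSG00000006998, chromosome 16, 20651652 to 20663414), the scaffold on which the cap takes up ubiquitin-like shuttle proteins, had 285.2, 238, 251, and 261 CPM in NOR and 544, 556, 552, and 441 CPM in CAC. CAC replicate 4 lay below the other CAC mice and still above every NOR mouse. Its log2 fold change was 1.01 (SE 0.126, FDR 0.00375). Transcripts of Psmd2 share 31.6% of their 31-base words with other genes, mainly Gm5422, and how reads of such words were assigned is not given. Psmd4 shares 0%.

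Of the 11 genes of this group 6 were called, namely Psmd1, Psmd2, Psmd3, Psmd4, Psmd8, and Psmd11, and all 11 passed the FDR limit with no overlap between the groups. The 5 below the fold limit were Psmd6, Psmd7, Psmd12, Psmd13, and Psmd14, the last one the subunit that cuts off the ubiquitin chain, with log2 fold changes of 0.38 to 0.57. Psmd8 had 365, 385, 374, and 209 CPM in CAC and 196, 184, 177, and 171 CPM in NOR. CAC replicate 4 was close to the NOR mice, and the log2 fold change of 0.87 (FDR 0.024) kept its call in 3 of the 8 fits that left out 1 mouse each. It was 1.04 without CAC replicate 4. The call of Psmd1 was kept in 4 of these 8 fits.

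The 6 ATPases, which unfold the substrate, passed the FDR limit together, and Psmc1, Psmc2, Psmc3, and Psmc4 also passed the fold limit. The call of Psmc4 was kept in 4 of the 8 fits that left out 1 mouse each, and the others in all 8. Transcripts of Psmc1 share 32.2% of their 31-base words with other genes, mainly Gm9575. Psmc2 (ENSMUSG00000028932) had 132, 122, 127, and 120 CPM in NOR and 254, 219, 222, and 190 CPM in CAC, and Psmc3 had 220, 190, 198, and 181 CPM in NOR and 338, 317, 316, and 265 CPM in CAC. Neither gene overlapped between the groups. The log2 fold changes were 0.82 (SE 0.110, FDR 0.00428) and 0.64 (SE 0.121, FDR 0.0133). In AM, Psmc3 had 183, 191, 202, and 215 CPM, all within the NOR range. In KD, Psmc2 had 83.5, 194, 168, and 121 CPM and Psmc3 had 130.1, 308, 245, and 196 CPM. KD replicate 1 lay below the NOR range in both genes, KD replicates 2 and 3 above it, and KD replicate 4 within it. Psmc5 and Psmc6 had log2 fold changes of 0.51 and 0.58 in CAC vs. NOR, the second just below the fold limit with a fold change of 1.499.

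In the alpha ring, 3 of 7 genes tested were called. Psma7 (ENSMUSG00000027566, chromosome 2, 180036374 to 180042433) stood at 102, 101, 98.7, and 99.7 CPM in NOR and at 205, 204, 254.8, and 241 CPM in CAC. The NOR mice were nearly equal, and every CAC mouse was about 2 times as high or more. Its log2 fold change was 1.17 (SE 0.109, FDR 0.00191). Psma4 rose by 0.76 (FDR 0.00325) and Psma5 by 0.61 (FDR 0.0222) on the log2 scale. The call of Psma4 was kept in all 8 fits that left out 1 mouse each, and that of Psma5 in 3 of the 8. Shared 31-base words made up 58.7% of Psma5 and 18.2% of Psma4. Psma6 had 106, 98.7, 98.1, and 104 CPM in NOR, 149, 146, 149, and 125 CPM in CAC, and 87.8, 96.7, 102, and 102 CPM in AM. The CAC mice lay above all others of these groups, and the log2 fold change of 0.48 (FDR 0.0157) passed the FDR limit only. In KD it had 74.9, 143, 118, and 98.3 CPM, with KD replicate 1 below the NOR range and KD replicates 2 and 3 above it. Psma1 was the alpha subunit with the smallest value, 0.25 (FDR 0.273).

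In the beta ring 1 of 7 genes was called, Psmb3 (ENSMUSG00000069744), a subunit without an active site. It had 116, 107, 104, and 108 CPM in NOR and 179, 180, 180, and 162 CPM in CAC, and differed by 0.69 on the log2 scale (SE 0.0888, FDR 0.00399). The KD mice had 93.3, 159.8, 113, and 101 CPM, with KD replicate 2 close to the CAC mice and the others within or below the NOR range. Psmb4, also without an active site, had 137, 129, 126, and 122 CPM in NOR, 201, 207, 194, and 165 CPM in CAC, and 90.3, 172, 141, and 129.6 CPM in KD. NOR and CAC did not overlap, and the log2 fold change of 0.57 (SE 0.105, FDR 0.0119) passed the FDR limit only. The 3 catalytic subunits were the beta genes with the smallest values. Psmb7, the trypsin-like subunit, had 167, 162, 151, and 154 CPM in NOR and 219, 221, 172, and 163 CPM in CAC. CAC replicates 1 and 2 lay far above the NOR range, CAC replicate 3 just above it and CAC replicate 4 within it, and the log2 fold change was 0.28 (SE 0.122, FDR 0.165). In AM it had 133, 139, 165, and 163 CPM and in KD 112, 212, 169, and 150 CPM, so that AM replicates 1 and 2 and KD replicates 1 and 4 lay below the NOR range. For the caspase-like subunit Psmb6 it was 0.23 (FDR 0.147), with 129 to 142 CPM in NOR and 145 to 172 CPM in CAC, and without overlap.

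The chymotrypsin-like subunit Psmb5 had 88.2, 83.5, 78.8, and 77.7 CPM in NOR and 100.5, 109, 92.9, and 49.2 CPM in CAC. CAC replicates 1 to 3 lay above the NOR range and CAC replicate 4 below it, and the log2 fold change was 0.095 (SE 0.224, FDR 0.834). Its sign was the opposite without CAC replicate 2 and in the BABL/c mice alone. Transcripts of Psmb5 share 71.7% of their 31-base words with other genes, mainly Gm3375, and 12.1% of its exon bases overlap Mir686, so its values are uncertain. Whether the 3 catalytic subunits changed less than the other structural subunits was not tested.

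**Figure D2:**
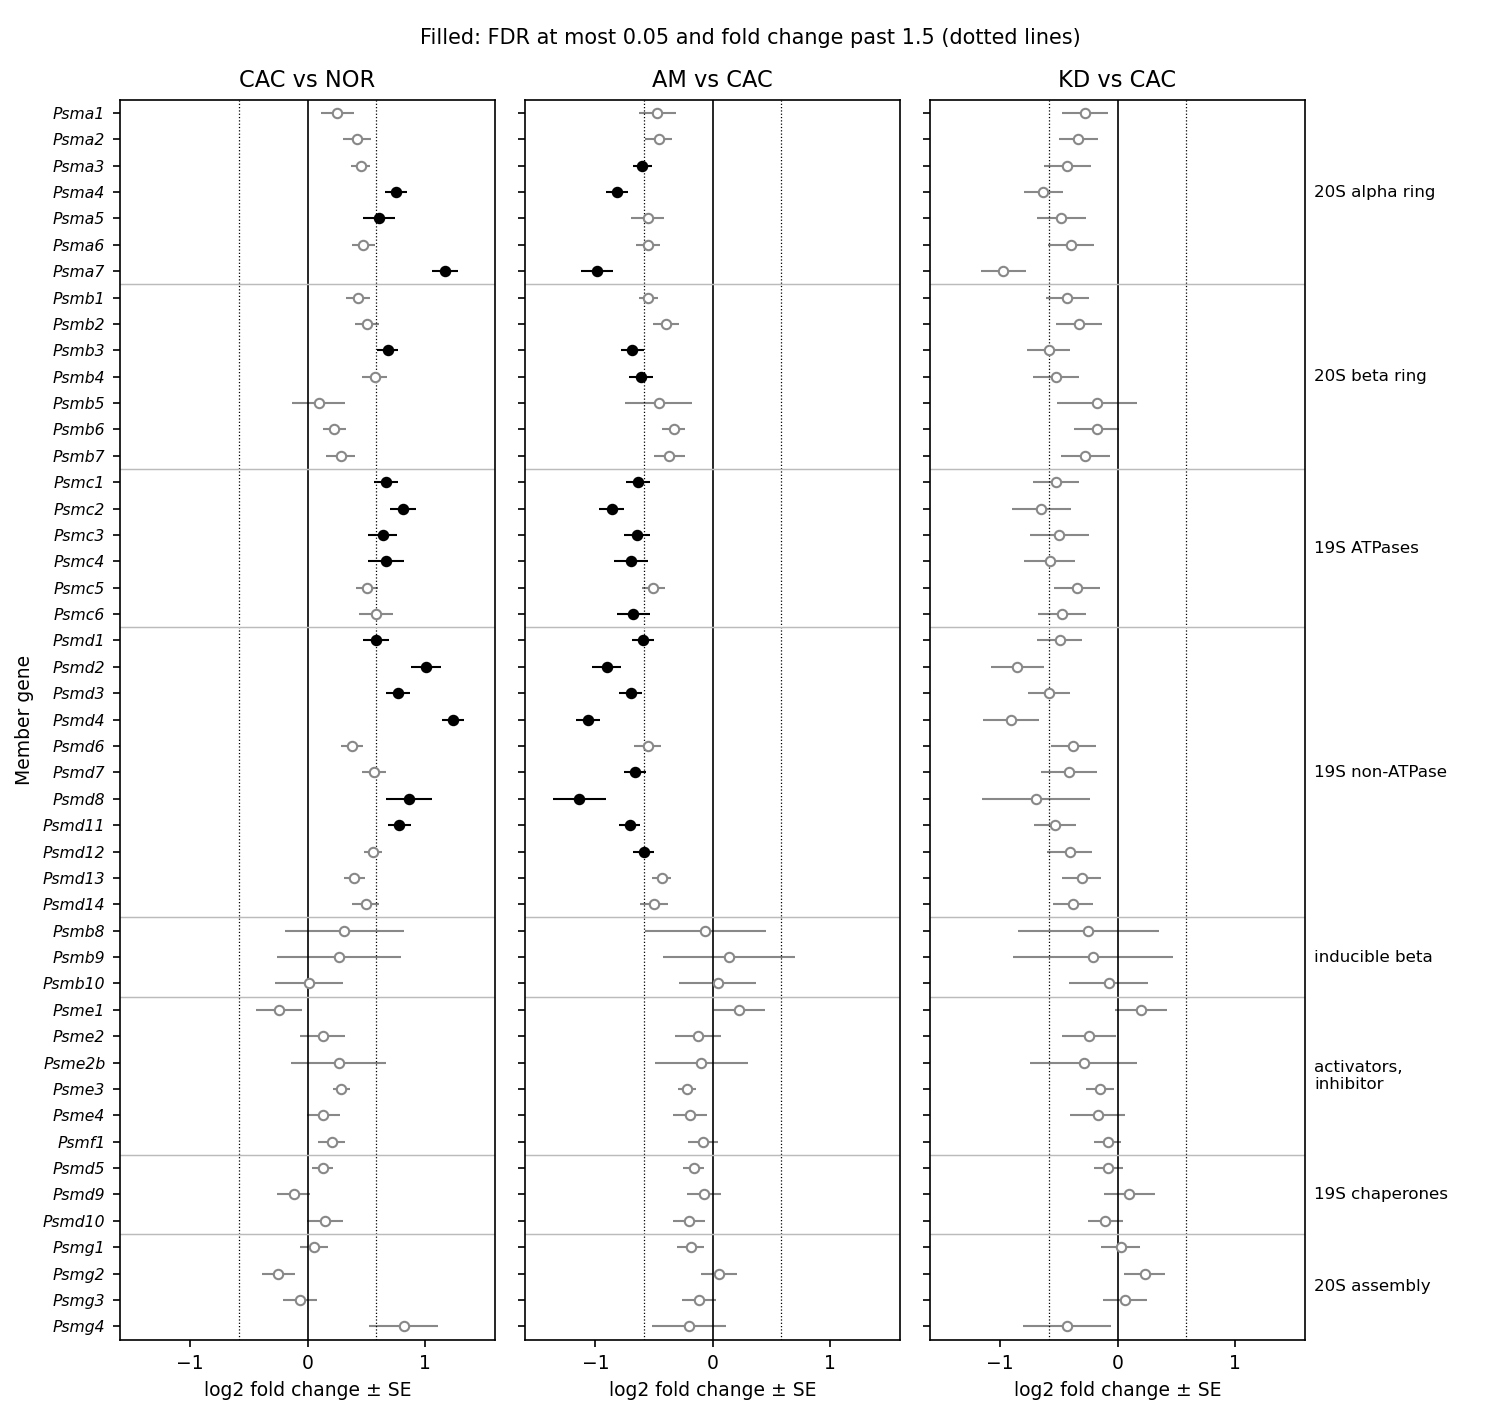
Log2 fold change ± SE of 47 of the 48 tested genes, without Psmc3ip, for CAC against NOR and for AM and KD against CAC, from edgeR on 8 libraries each. Filled points passed the FDR and fold limits (dotted lines at 1.5-fold). The filled points are 14 structural subunits to the right of 0 in CAC vs. NOR and 18 to the left of 0 in AM vs. CAC, and there is none in KD vs. CAC.

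In AM relative to CAC, 18 of the 48 genes fell and 0 rose, where 2.03% of 14674 genes fell and 1.63% rose. The count was 9 without CAC replicate 1, 11 without CAC replicate 2, 11 without AM replicate 1, and 8 with all 16 libraries in 1 fit. Over all genes these fits called 212 of 14934, 307 of 14905, 268 of 14809, and 231 of 15220, against 537 of 14674 in the main fit. In all 8 fits with 1 mouse left out, 9 of the 18 calls were kept. The count of members was 0 in each strain alone, with 2 mice against 2, where 0 of all genes were called. It was also 0 without the libraries under 10 CPM of B and T cell markers, a setting chosen after seeing the data. That setting left 2 CAC mice, called 18 of 15150 genes in all, and gave a median of the members of -0.59. All 18 were structural subunits, 5 of 6 ATPases, 8 of 11 other cap subunits, 3 of 7 alpha genes, and 2 of 7 beta genes. Without the fold limit 24 fell (3.22% of all genes). The median log2 fold change was -0.48 over the 48 genes, -0.60 over the 31 structural subunits, and 0.007 over all genes, and all 31 had a negative value (49.1% of all genes). In 28 of the 31, every AM mouse lay below every CAC mouse, as in 9.27% of all genes. This comparison uses the same CAC mice as CAC vs. NOR, so that chance deviations of the CAC mice enter both with opposite signs. The values of the 2 comparisons are therefore given side by side and not as separate support.

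The subunits with the largest falls were Psmd8, Psmd4, Psma7, and Psmd2. Psmd4 had 188, 185, 165, and 158 CPM in AM, against 350 to 378 CPM in CAC, and its difference was -1.06 on the log2 scale (SE 0.101, FDR 0.0032). Psma7 had 133, 102, 121, and 101 CPM in AM against 204 to 254.8 CPM in CAC, and its log2 fold change was -0.98 (SE 0.139, FDR 0.0104). For Psmd2 the 4 AM mice had 298, 261, 297, and 264 CPM, and the log2 fold change was -0.90 (SE 0.122, FDR 0.00952). In these 3 genes all AM mice lay far below all CAC mice, and for each of them the ranges of the AM and NOR mice overlapped.

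Psmd8 had 129, 195, 132, and 152 CPM in AM. AM replicates 1, 3, and 4 were below every NOR mouse, and CAC replicate 4 at 209 CPM was only slightly above AM replicate 2. The log2 fold change of -1.14 (SE 0.225, FDR 0.0283) was the largest fall of the 48, yet its call was kept in 2 of the 8 fits with 1 mouse left out. Psmc2 had 122, 118, 131, and 116 CPM in AM (log2 fold change -0.86, FDR 0.00762). Psmc4 and Psmc6, with -0.70 (FDR 0.0333) and -0.68 (FDR 0.0333), were called in 1 of these 8 fits each.

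Psmb3 fell by 0.68 (FDR 0.0105) and Psmb4 by 0.61 (FDR 0.0158) on the log2 scale. Psmb3 had 119, 107, 112, and 99.0 CPM in AM, and Psmb4 had 118, 127, 130, and 127 CPM against 165 to 207 CPM in CAC, without overlap in either gene. The catalytic subunits were not called, with -0.37 for Psmb7 (FDR 0.152), -0.33 for Psmb6 (FDR 0.097), and -0.46 for Psmb5 (FDR 0.406). Psmb5 had 44.9, 77.1, 51.4, and 82.9 CPM in AM, so that AM replicates 1 and 3 and CAC replicate 4 were the lowest of these groups, and KD replicate 1, with 38.1 CPM, was lower still.

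**Figure D3:**
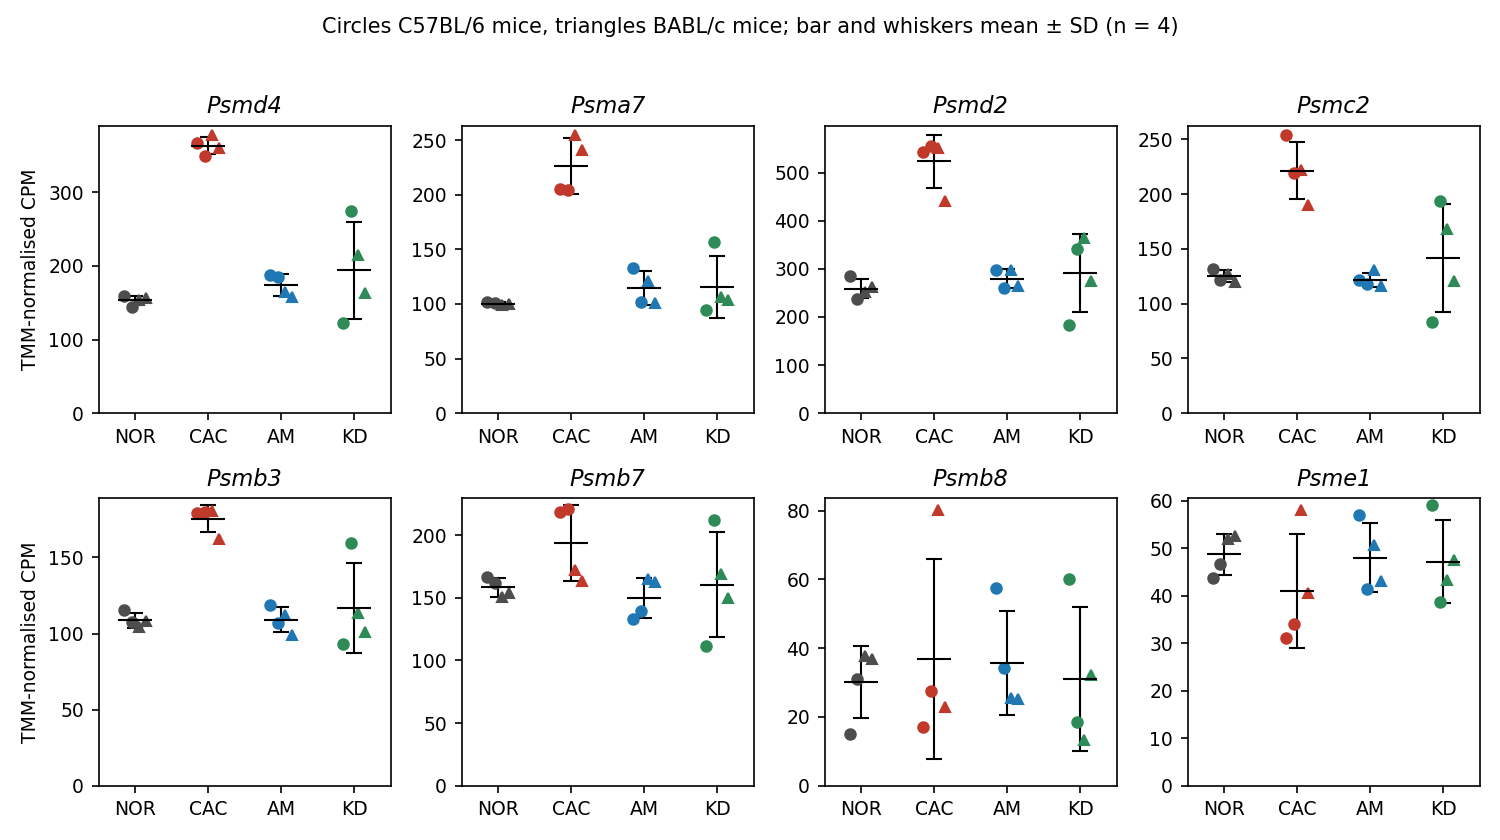
TMM-normalised CPM of 8 proteasome genes in each mouse (circles C57BL/6, triangles BABL/c), with the mean and SD of each group of 4. For Psmd4, Psma7, Psmd2, Psmc2, and Psmb3 the CAC mice lie above all NOR and AM mice and the KD mice spread widely, while Psmb7, Psmb8, and Psme1 overlap between groups.

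In KD relative to CAC, 0 of the 48 genes were called, as were 1 of 14593 genes in all (0.00685% down and 0% up). An unadjusted p under 0.05 was reached by 15 of 48, all lower in KD, where 5.09% of all genes were lower and 6.06% higher at that level. The DESeq2 alternative and the fit of all 16 libraries each called 4 members, Psma4, Psma7, Psmd2, and Psmd4, all lower in KD. Over all genes these fits called 327 of 17654 and 145 of 15220. The median log2 fold change was -0.36 over the 48 and 0 over all genes, and all 31 structural subunits had a negative value (50% of all genes), 8 of them without overlap (3.58% of all genes). With total counts only, which moved the median of all genes to -0.11, the number of members with an unadjusted p under 0.05 was 30 and the median of the members -0.50. The share of all genes with an unadjusted p under 0.05 was not computed with this scaling. In settings chosen after seeing the data, with 2 mice against 2, the median of the members was -0.71 without the libraries under 10 CPM of B and T cell markers. It was -0.077 without those at 10 CPM or more. Over all genes the medians were 0 and -0.002. In these fits 28 and 1 members had an unadjusted p under 0.05, and the share of all genes at that level was not computed. In both, 0 members were called, as were 0 of 14972 and 0 of 14354 genes.

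The summed level of the structural subunits differed more between the KD mice than between those of any other group. For the 31 structural subunits it was 3475 to 3793 CPM in NOR, 4910 to 6038 CPM in CAC, 3369 to 3641 CPM in AM, and 2628 to 5211 CPM in KD. KD replicate 1 was lower than the NOR mean in all 31 subunits, with a median log2 difference of -0.41, and KD replicate 2 was above the highest NOR mouse in all 31, with a median of 0.48. KD replicates 3 and 4 had medians of 0.22 and 0.023. Replicates 1 and 2 share the strain and the tumor line. They also differed in the summed B and T cell markers, with 449 and 1.84 CPM, and in Trim63, with 101 and 1017 CPM. The part of these differences in the spread was not tested.

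For Psma7 the KD mice had 94.0, 157, 107, and 104 CPM, all below the CAC mice, with a log2 fold change of -0.97 (SE 0.191, FDR 0.231). Psmd4 had 122, 274, 215, and 164 CPM (log2 fold change -0.91, SE 0.238, FDR 0.268) and Psmd2 had 184, 341, 364, and 274 CPM (-0.85, SE 0.222, FDR 0.268). In both genes KD replicate 1 was lowest and lay below every NOR mouse. Psmd8 ranged most widely, from 101 CPM in KD replicate 1 to 432 CPM in KD replicate 2, the highest value of all 16 mice. With 1 mouse left out, the members with an unadjusted p under 0.05 in KD vs. CAC numbered from 6 (without KD replicate 4) to 28 (without KD replicate 2), with 7 without CAC replicate 1 or CAC replicate 2, 8 without CAC replicate 3, and 0 called in each fit. The share of all genes at that level was not computed for these fits. The median of the members was -0.31 without KD replicate 4 and -0.51 without KD replicate 2, against -0.006 and 0.007 over all genes.

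Compared with NOR directly, 0 of 48 genes were called in AM (edgeR, 3 with an unadjusted p under 0.05) and 0 in KD (0 with an unadjusted p under 0.05), and DESeq2 also called 0 in both. Over all genes edgeR gave 0 calls in these comparisons too (0% of 14738 and 0% of 14748), while DESeq2 called 78 of 17740 genes in AM vs. NOR and 38 of 17718 in KD vs. NOR. The shares of all genes with an unadjusted p under 0.05 were 5.06% higher and 4.13% lower in AM vs. NOR and 2.16% higher and 1.38% lower in KD vs. NOR. The median log2 fold change of the members was -0.020 in AM vs. NOR and 0.098 for KD. The second was 0.198 without KD replicate 1 and -0.008 without KD replicate 2. Between AM and KD 0 members were called (0% of 14745 genes), 1 had an unadjusted p under 0.05 (Psmc3ip, lower in AM, where 0.576% of all genes were lower and 0.529% higher), and the median was -0.12 (-0.24 without KD replicate 1 and 0.002 without KD replicate 2). A missed limit in 4 mice against 4 does not show equal levels. For Psmd4 the mean and SD were 153 ± 6.06 CPM in NOR, 174 ± 14.6 CPM in AM, and 194 ± 65.7 CPM in KD (n = 4).

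By FPKM, which the authors scaled to gene length, Psmd2 had the highest mean of the 31 structural subunits in every group, with 185 ± 6.79 (NOR), 409 ± 68.4 (CAC), 210.3 ± 26.8 (AM), and 203 ± 34.3 (KD; mean ± SD of 4 mice). Psmd14 had the lowest in every group, with 27.3 ± 2.21, 41.8 ± 5.32, 28.5 ± 1.35, and 29.3 ± 3.35. Next after Psmd2 was Psmb6 in NOR, AM, and KD, with 163.5 ± 4.65, 160 ± 8.48, and 167 ± 22.6 FPKM, and Psmd4 in CAC, with 305 ± 45.0 FPKM. The spreads of Psmb6 and of the next gene, Psmb3, overlapped in AM (145 ± 20.1) and KD (145 ± 21.9) and did not in NOR (137.5 ± 4.93). One length per gene and shared sequence, 31.6% for Psmd2 and 21.7% for Psmb3, limit such an order.

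The inducible subunits were not called in any comparison, and they varied within each group. Psmb8 had 14.96, 31.2, 37.7, and 36.8 CPM in NOR, 17.0, 27.7, 80.1, and 22.9 CPM in CAC, 57.5, 34.1, 25.5, and 25.3 CPM in AM, and 60.0, 18.6, 13.3, and 32.3 CPM in KD. All 4 groups overlapped. The log2 difference of CAC from NOR was 0.32 (SE 0.507, FDR 0.744). That of AM from CAC was -0.062 (SE 0.518, FDR 0.960) and that of KD from CAC was -0.25 (SE 0.602, FDR 0.945). Psmb9 had 8.52, 12.2, 18.4, and 15.2 CPM in NOR, 7.02, 12.4, 36.8, and 8.28 CPM in CAC, 27.5, 17.1, 10.04, and 17.1 CPM in AM, and 30.4, 6.73, 5.73, and 13.0 CPM in KD. Psmb10 had 21.8, 24.4, 30.6, and 26.2 CPM in NOR, 16.7, 21.0, 43.1, and 22.1 CPM in CAC, 36, 28.0, 21.6, and 20.9 CPM in AM, and 32.6, 20.2, 16.2, and 28.9 CPM in KD. All groups overlapped in both genes, and AM replicate 1 and KD replicate 1 were the highest of their groups, as for Psmb8. Psmb9 and Psmb10 had log2 fold changes of 0.27 and 0.010 in CAC vs. NOR with FDRs of 0.796 and 0.988. CAC replicate 3 had the highest value of all 16 mice in each of the 3 genes. Without it the log2 fold changes in CAC vs. NOR were -0.42 for Psmb8, -0.56 for Psmb9, and -0.37 for Psmb10, so that the direction of Psmb8 and Psmb9 turned without this mouse. With all mice, that of Psmb9 also turned under another test, limma-voom (-0.055). For Psmb10, whose value was close to 0, the sign also turned without NOR replicate 1 or NOR replicate 2.

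In the 5 libraries with B and T cell markers under 10 CPM, Psmb8 lay between 13.3 and 22.9 CPM, and in the other 11 between 25.3 and 80.1 CPM. Psmb9 lay between 5.73 and 8.52 CPM in the first and between 10.0 and 36.8 CPM in the others. Neither gene overlapped between these libraries, which are no groups of the study and were split after the data were seen, and Psmb10 did, with 16.2 to 22.1 CPM and 20.9 to 43.1 CPM. CAC replicate 3 was also high in the interferon-response gene Gbp2, with 106 CPM against 23.8 to 25.8 CPM in the other CAC mice. Of the 8 interferon-response genes (among them Irf1, Tap1, Tap2, Tapbp, B2m, Gbp2, and Nlrc5) 0 were called in CAC vs. NOR, and their median was 0.41 on the log2 scale. Their summed level was 1486 CPM in CAC replicate 3 and 472.5, 554, and 534.5 CPM in the other CAC mice, against 458 to 788 CPM in NOR, so that CAC replicate 3 was the only CAC mouse above the NOR range. AM replicate 1, with 880 CPM, and KD replicate 1, with 1059 CPM, also lay above it, and KD replicate 3, with 431.5 CPM, below it. The part of lymphocytes or of interferon in these values was not tested. Psmb8 and Psmb9 lie beside Tap1 and Tap2 on chromosome 17, and 5.79% of the exon bases of Psmb9 overlap Tap1.

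**Figure D4:**
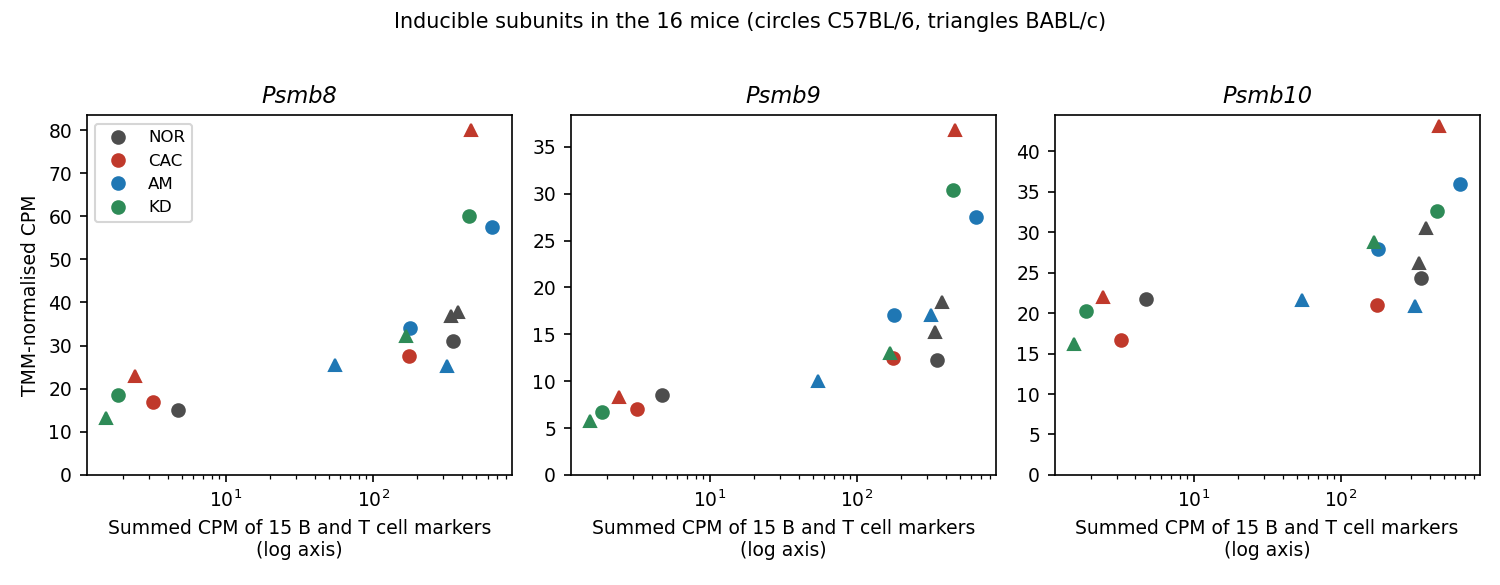
TMM-normalised CPM of Psmb8, Psmb9, and Psmb10 against the summed CPM of 15 B and T cell markers (log axis) in the 16 mice, coloured by group, with circles for C57BL/6 and triangles for BABL/c. The 5 libraries under 10 CPM of markers hold the lowest values of Psmb8 and Psmb9, and the highest value of each gene is CAC replicate 3. The library sizes enter both axes.

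Set against its constitutive partner by FPKM, the ratio of Psmb8 to Psmb5 ranged from 0.0941 in KD replicate 3 to 0.981 in KD replicate 1, that of Psmb9 to Psmb6 from 0.0379 to 0.318, and that of Psmb10 to Psmb7 from 0.0677 to 0.258. The first ratio rests on the uncertain values of Psmb5. In CAC mice the ratio of Psmb9 to Psmb6 was 0.0424, 0.0751, 0.261, and 0.0590, and in NOR mice it was 0.0620, 0.0957, 0.142, and 0.122, so that CAC replicates 1 and 4 lay below every NOR mouse, CAC replicate 2 below all but the lowest, and CAC replicate 3 above all.

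Among the activators and the inhibitor, 0 of 6 were called in any comparison. Psme3, a nuclear activator of the core, was the only one within the FDR limit in CAC vs. NOR. It had 56.4, 62.4, 60.6, and 58.9 CPM in NOR and 73.1, 74.0, 75.3, and 68.4 CPM in CAC, without overlap, and its log2 fold change of 0.29 (SE 0.0719, FDR 0.0338) was below the fold limit. It had 59.1, 65.3, 65.7, and 59.9 CPM in AM and 55.9, 72.9, 72.5, and 62.1 CPM in KD, with replicates 2 and 3 of both groups above the NOR range. Psme1 and Psme2, the interferon-induced activator pair, had log2 fold changes of -0.25 (FDR 0.460) and 0.13 (FDR 0.720). Psme2 had 24.0, 24.5, 28.8, and 28.3 CPM in NOR and 20.9, 24.6, 37.6, and 32.1 CPM in CAC, with CAC replicates 3 and 4 above the NOR range. Psme1 had 31.1, 34.1, 57.9, and 40.5 CPM in CAC and 43.6, 46.7, 51.9, and 52.6 CPM in NOR, so that CAC replicate 3 was the only CAC mouse above the NOR range. Psme1 had 56.98, 41.4, 50.6, and 43.0 CPM in AM and 59.0, 38.7, 43.2, and 47.5 CPM in KD, and Psme2 had 30.0, 27.5, 23.7, and 24.5 CPM in AM and 29.3, 23.1, 17.7, and 27.6 CPM in KD. In both genes AM replicate 1 and KD replicate 1 lay above the NOR range, and KD replicates 2 and 3 below it. Psme4, a large activator that caps the core in place of the 19S cap, had 239, 198, 225, and 203 CPM in NOR and 272, 274, 215, and 194 CPM in CAC (log2 fold change 0.13, FDR 0.594). The C57BL/6 CAC mice lay above the NOR range and CAC replicate 4 below it. Psme4 had 185, 189, 243, and 218 CPM in AM and 127, 228, 261, and 235 CPM in KD, where KD replicate 1 was the lowest of all 16 mice. Psmf1, the inhibitor, had 26.5, 25.4, 23.1, and 24.6 CPM in NOR and 31.2, 31.9, 28.2, and 24.0 CPM in CAC (0.21, FDR 0.272), where only CAC replicate 4 lay within the NOR range. It had 28.7, 24.7, 30.7, and 24.5 CPM in AM and 26.9, 27.7, 28.2, and 26.3 CPM in KD, and both overlapped CAC. Psme2b had 0.958, 2.29, 2.32, and 2.20 CPM in NOR, 1.24, 1.90, 3.83, and 2.28 CPM in CAC, 3.27, 1.72, 1.71, and 1.97 CPM in AM, and 3.16, 1.37, 1.08, and 1.963 CPM in KD, and all groups overlapped (0.27 in CAC vs. NOR, FDR 0.729). Shared 31-base words made up 78.4% of Psme2b and 33.5% of Psme2, so that their counts are uncertain.

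Of the chaperones that assemble the cap (Psmd5, Psmd9, and Psmd10), 0 of 3 were called, with log2 fold changes of 0.13, -0.12, and 0.15 in CAC vs. NOR. Psmd5 had 28.4, 29.1, 26.7, and 27.7 CPM in NOR and 33.1, 31.6, 30.5, and 27.4 CPM in CAC, of which only CAC replicate 4 was in the NOR range. It had 27.5, 28.1, 27.8, and 26.3 CPM in AM and 24.7, 32.6, 27.7, and 31.4 CPM in KD. Psmd9 had 27.2, 22.7, 23.3, and 26.5 CPM in NOR, 25.9, 26.9, 21.3, and 18.3 CPM in CAC, 19.5, 22.6, 21.2, and 24.4 CPM in AM, and 16.05, 24.1, 31.8, and 27.6 CPM in KD. All 4 groups overlapped, with the lowest and the highest value of the 16 mice in KD replicates 1 and 3. Psmd10 had 6.83, 9.31, 9.12, and 9.97 CPM in NOR, 8.69, 11.46, 10.1, and 8.76 CPM in CAC, 8.23, 8.38, 9.15, and 8.20 CPM in AM, and 8.61, 9.06, 9.86, and 8.86 CPM in KD, and the groups overlapped here too. Of the exon bases of Psmd9, 25.5% overlap Gm26745 on the opposite strand. Their summed level was 59.1 to 64.2 CPM in NOR and 54.4 to 69.9 CPM in CAC. Of the 4 assembly factors of the core, Psmg1 and Psmg3 had values near 0 (0.056 and -0.064) and Psmg2 had -0.25 (FDR 0.279). Psmg2 had 14.8, 18.8, 16.04, and 14.7 CPM in NOR, 15.02, 15.78, 12.1, and 11.3 CPM in CAC, 12.4, 12.6, 15.9, and 15.4 CPM in AM, and 12.8, 19.5, 16.7, and 14.8 CPM in KD. Psmg3 had 9.94, 8.32, 9.99, and 7.46 CPM in NOR, 9.31, 8.89, 8.27, and 7.82 CPM in CAC, 8.12, 6.41, 8.52, and 8.56 CPM in AM, and 6.57, 11.3, 9.15, and 8.81 CPM in KD. The groups overlapped in both genes, and KD replicate 2 was the highest of the 16 mice. Psmg4 had a large value of 0.82 (SE 0.297, FDR 0.106) of which CAC replicate 4 made a large part, with 17.6 CPM against 6.53, 8.48, and 9.14 CPM in the other CAC mice and 6.81, 5.26, 5.87, and 5.62 CPM in NOR. Without that mouse the value was 0.45. Psmg4 had 11.3, 7.25, 10.46, and 7.19 CPM in AM and 12.0, 7.82, 5.58, and 5.48 CPM in KD, and all AM mice lay above the NOR range. Psmc3ip, the gene without a place in the proteasome, had 1.89, 2.91, 2.08, and 2.49 CPM in NOR and 1.44, 1.99, 1.74, and 1.82 CPM in CAC (log2 fold change -0.42, FDR 0.232). It had 1.15, 1.496, 1.81, and 1.59 CPM in AM, all below the NOR range, and 2.17, 2.41, 2.51, and 2.20 CPM in KD, all within it.

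Of a list of 31 genes of the pathway around the proteasome, 30 were measured, of which 7 were called up and 0 down in CAC vs. NOR (4.32% of all genes were called up). Their median was 0.34 on the log2 scale. They included the ubiquitin ligases Fbxo32, Trim63, and Fbxo31, the cap-bound ubiquitin receptor Adrm1, the Vcp cofactor Nploc4, and the ubiquitin gene Ubb. Fbxo32 and Trim63 are markers of muscle wasting that the study followed in these mice, so their direction is not independent evidence. Adrm1, a subunit of the cap without a Psm symbol, had 129, 114, 122, and 120 CPM in NOR and 252, 223, 233, and 218 CPM in CAC. No CAC mouse overlapped the NOR mice, and the log2 fold change was 0.93 (FDR 0.00214). Sem1, a small subunit of the cap, had 0.046 (FDR 0.807), and Pomp, the maturation factor of the core, had 0.21 (FDR 0.112).

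Nfe2l1 and Nfe2l2, transcription factors known to act on proteasome genes, had 0.25 (FDR 0.154) and 0.57 (FDR 0.0183) in CAC vs. NOR, and the second was just below the fold limit. Nfe2l2 had 54.7, 63.2, 69.7, and 70.8 CPM in NOR and 101, 78.2, 96.5, and 107 CPM in CAC, without overlap. In AM vs. CAC, 6 of the 30 genes were called down and 0 up (2.03% of all genes were called down), and Nploc4, with -0.65 (FDR 0.117), was not among them. AM replicate 1 had 128 CPM of Nploc4, near the CAC range of 129 to 163 CPM. In KD vs. CAC 0 of 30 were called.

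The test of a strain by condition interaction found 0 of the 48 members for CAC against NOR and 0 for AM and for KD against CAC (edgeR, FDR over all genes, where 0 genes passed). Unadjusted p-values under 0.05 were found for 1, 9, and 2 members, where the shares over all genes were 4.89%, 12.4%, and 5.65%. The 14 and 18 genes called in the first 2 comparisons had the same sign in both strains. They were called on the mice of both strains together, so this agreement was largely fixed beforehand and is no separate support. The median log2 fold change of the members was 0.44 in C57BL/6 and 0.46 in BABL/c mice in CAC vs. NOR, and -0.65 and -0.48 in AM vs. CAC. With 2 mice against 2, the C57BL/6 mice alone gave 4 called members in CAC vs. NOR and the BABL/c mice 0, and in AM vs. CAC both gave 0. Over all genes these fits called 247 of 14604 and 0 of 15059 in the first comparison and 0 in either strain in the second. In AM vs. CAC the inducible subunits had opposite signs in the 2 strains, with 1.06 and -1.06 for Psmb8, where CAC replicate 3 is a BABL/c mouse, and the interaction did not pass the limit (2.12, SE 0.858, FDR 0.397).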

How the data were processed

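Counts of 16 poly(A) libraries from gastrocnemius, 1 per mouse, were taken from the table the authors deposited, which holds raw read counts and FPKM per gene. The FPKM values were deposited as the authors had scaled them to gene length and depth. The submitters' processing notes name fastp, Bowtie2, HISAT2, and StringTie 1.3.1 and the builds mm9 and GRCm38 without roles, and the counting tool and strandedness are not given in the sources used here. The study's own test, NOISeq, was not installed.

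Groups of 4 mice were compared in pairs with edgeR 4.0.16 (R 4.3.3, TMM scaling, the filterByExpr filter at 10 counts per library and 15 in total, quasi-likelihood F test, Benjamini-Hochberg FDR over all genes tested). Called genes passed an FDR limit of 0.05 and had changed 1.5-fold up or to 0.667 down. FPKM was used only for levels between genes. Alternatives were DESeq2 1.42.0, limma 3.58.1 (voom), other scalings, no filter, a strain covariate, the replicate block, all libraries in 1 fit, each strain alone, and each mouse left out. The code was tested on simulated counts. Replicate libraries differed by more than sampling noise (chi-square per degree of freedom of at least 61.8 over 24 pairs).

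Members are all genes with a symbol that begins with Psma to Psmg and a digit. Values per mouse are given in each role group for the 2 genes with the highest mean CPM and the one with the largest change in CAC vs. NOR, and for the inducible subunits, activators, and inhibitor. Values of other genes were chosen after they were seen. Members and lists were chosen with earlier results of these data known. Positions are from GENCODE M21 on GRCm38, and 21905 of 21923 identifiers matched. Shared sequence is the share of 31-base words of a gene's transcripts found in other genes. Antisense and overlapping genes cannot be told apart without strand. Single values of some genes of the pathway and interferon lists are not reported here.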

Additional observations from a re-analysis of the deposited data

Results flagged for a closer look

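In groups of 4 mice, a mouse was set apart when its gap to the nearest other mouse, divided by the range of the group, was above Dixon's 95% critical value. Of 192 group tests over the 48 tested genes 13 met this, and chance alone sets apart about 1 in 20 groups. CAC replicate 4 stood low in 5 genes, with 441.1 CPM of Psmd2 (the other CAC mice had 543.7 to 555.6), 266 CPM of Psmd3 (297.7 to 303.9), 124.5 CPM of Psma6 (146.3 to 149.2), 208.7 CPM of Psmd8 (365.4 to 384.7), and 162.2 CPM of Psmb3 (179.2 to 180.4). AM replicate 1 stood low in 3 ATPases, with 106.7 CPM of Psmc1 (117.5 to 119.1), 75.94 CPM of Psmc6 (83.78 to 85.22), and 80.32 CPM of Psmc4 (88.64 to 89.06). CAC replicate 3 stood high for Psmb8, with 80.05 CPM (16.99 to 27.67). NOR replicate 3 stood low for Psma4, with 77.6 CPM (83.32 to 83.59), and AM replicate 3 stood high for Psma5, with 47.4 CPM (42.15 to 42.96). Psme2b stood low in NOR replicate 1, with 0.958 CPM (2.20 to 2.32), and high in AM replicate 1, with 3.27 CPM (1.71 to 1.97).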

How the results depend on the processing

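Of the CAC vs. NOR calls, 10 of 14 were kept in all 8 fits that left out 1 mouse. The count was 10 to 18 in these fits, where 728 to 1272 of all genes were called, against 1386 with all mice. It was 22 with total counts only, which moved the median of all genes to 0.138, and 28 with no fold limit. Over all genes 1578 and 2048 of 14666 were called in these settings. The count of members was 4 in the C57BL/6 mice alone and 0 in the BABL/c mice alone, where 2 mice stood against 2. Over all genes these fits called 247 of 14604 and 0 of 15059. Of the AM vs. CAC calls 9 of 18 were kept in all 8 fits. The count was 9 (without CAC replicate 1, with 212 of all genes called) to 24 (without CAC replicate 4, with 447). It was 11 without AM replicate 1 (268 of all genes) and 11 without CAC replicate 2 (307 of all genes). It was 8 with all 16 libraries in 1 fit (231 of 15220 genes), and 0 in each strain alone, as it was over all genes. With the replicate block it was 0, as it was for all 14674 genes, and the median of the members was -0.47 (-0.48 without the block). The labels give no pairing of the mice. The lowest correlation of same-numbered deviations was 0.061 or less in each of the 6 comparisons, which with 4 mice per group cannot exclude a pairing. The correlation was -0.546 to 0.038 in AM vs. CAC, where 0 of 4 correlated best with their own number, and 0.061 to 0.55 in AM vs. KD, where 2 of 4 did. Over all comparisons it ranged from -0.665 to 0.632. The block changed no other count of called members. In KD vs. CAC, DESeq2 and the fit of all 16 libraries gave 4 each, with 327 of 17654 and 145 of 15220 genes called in all. Settings chosen after seeing the data used the B and T cell markers. As a covariate they gave 14 calls in CAC vs. NOR (1678 of 14666 genes in all), 17 for AM against CAC (424 of 14674), and 0 for KD against CAC (2 of 14593). Without libraries under 10 CPM of markers there were 17 calls in CAC vs. NOR (398 of 15159 genes, median 0.59), and 0 in AM vs. CAC (18 of 15150 genes), where 2 CAC mice were left and the median was -0.59. Without libraries at 10 CPM or more, the median of the members in CAC vs. NOR was 0.30, against 0.44 with all mice. There 1 NOR mouse stood against 2 CAC mice, so calls of that fit say nothing about stability. KD vs. CAC gave 0 calls in both, and the median of the members, -0.36 with all mice, was -0.71 without libraries under 10 CPM and -0.077 without those at 10 CPM or more. The causes were not tested, except that fewer mice entered some fits. Of 2592 values of the 48 members under the other settings, 90 had the other sign, in 15 genes, and 0 of these passed the FDR limit in either fit.

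With limma-voom the log2 fold change had the other sign, at 0.13 for Psmb8 in AM vs. CAC, and -0.083 for Psmb10 and -0.055 for Psmb9 in CAC vs. NOR, and -0.001 for Psmg1 in KD vs. CAC. In the BABL/c mice alone the log2 fold change had the other sign, at -0.10 for Psme1, 0.18 for Psmd9, 0.058 for Psmg3, -0.66 for Psmb10, 0.052 for Psmf1, 0.14 for Psme4, and -0.78 for Psmb9 in AM vs. CAC, and -0.097 for Psmb5 and -0.036 for Psme4 in CAC vs. NOR, and 0.21 for Psmb5, -0.14 for Psme1, -0.18 for Psmg1, 0.003 for Psmd5, 0.036 for Psmf1, and 0.26 for Psme4 in KD vs. CAC. In the C57BL/6 mice alone the log2 fold change had the other sign, at 1.06 for Psmb8, -0.28 for Psmg2, 0.33 for Psmg4, 0.69 for Psme2b, and 0.35 for Psme2 in AM vs. CAC, and -0.046 for Psmb8, 0.084 for Psmd9, -0.29 for Psmb10, -0.05 for Psme2b, -0.093 for Psme2, and -0.091 for Psmb9 in CAC vs. NOR, and 0.85 for Psmb8, -0.37 for Psmd9, 0.51 for Psmb10, 0.43 for Psmg4, 0.56 for Psme2b, 0.23 for Psme2, and 0.96 for Psmb9 in KD vs. CAC. With the replicate block the log2 fold change had the other sign, at 0.15 for Psmb8 in AM vs. CAC, and -0.089 for Psmb10 and -0.038 for Psmb9 in CAC vs. NOR. With the strain as a covariate the log2 fold change had the other sign, at 0.002 for Psmb8 in AM vs. CAC, and -0.042 for Psmb10 in CAC vs. NOR. With total counts only the log2 fold change had the other sign, at -0.051 for Psmb10 in AM vs. CAC, and 0.004 for Psmd9 and 0.067 for Psmg3 in CAC vs. NOR, and -0.098 for Psmg1, -0.028 for Psmd9, and -0.08 for Psmg3 in KD vs. CAC. With 1 mouse left out in turn, the log2 fold changes in AM vs. CAC whose sign changed ranged from -0.15 to 0.43 for Psmb10, -0.41 to 0.68 for Psmb8, -0.16 to 0.97 for Psmb9, -0.17 to 0.012 for Psmd9, -0.26 to 0.044 for Psme2, -0.38 to 0.28 for Psme2b, -0.022 to 0.14 for Psmg2, and -0.37 to 0.17 for Psmg4. With 1 mouse left out in turn, the log2 fold changes in CAC vs. NOR whose sign changed ranged from -0.37 to 0.17 for Psmb10, -0.02 to 0.29 for Psmb5, -0.42 to 0.56 for Psmb8, -0.56 to 0.52 for Psmb9, -0.03 to 0.26 for Psme2, -0.10 to 0.48 for Psme2b, and -0.15 to 0.015 for Psmg3. With 1 mouse left out in turn, the log2 fold changes in KD vs. CAC whose sign changed ranged from -0.25 to 0.32 for Psmb10, -0.38 to 0.049 for Psmb5, -0.80 to 0.49 for Psmb8, -0.94 to 0.62 for Psmb9, -0.03 to 0.26 for Psmd9, -0.66 to 0.091 for Psme2b, -0.27 to 0.008 for Psme4, -0.083 to 0.098 for Psmg1, and -0.079 to 0.18 for Psmg3.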
